A study of Danio rerio with 12 samples.

Results

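The genes described here belong to the machinery that forms, moves and fuses membrane vesicles, and they were chosen by gene symbol: rab, sec, arf, sar1, cop, clathrin, AP-1 to AP-3 adaptor, dynamin, endophilin (sh3gl), syntaxin, syntaxin-binding, vamp, snap, synaptotagmin, complexin, napa, nsf and spectrin genes. A probe set, the group of array features that reads 1 transcript, was a member if the platform's annotation gave it a single symbol of this kind. There were 151 such probe sets for 124 genes, of 15502 probe sets on the array, of which 10795 carried a single symbol. By name each was placed in 1 step of traffic: 28 probe sets in transport between endoplasmic reticulum (ER) and Golgi, 57 in post-Golgi and endosomal transport, 20 in endocytosis, 30 in regulated release and 6 in the membrane skeleton, while 10 that the symbol pattern took in lie outside these steps. Of the 151 probe sets, 128 (113 genes) were bright enough to be tested: a probe set was left out when its highest value lay in the lowest 25% of all, and this removed 23 probe sets and left 11 genes, among them dnm1a, sec31a and syt13, with none.

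The 12 arrays were hybridized with pineal gland RNA from adult zebrafish of the line Tg(aanat2:EGFP)Y8, aged 0.5 to 1.5 years, males and females together. In this line the promoter of aanat2, a pineal enzyme gene of melatonin synthesis, drives a fluorescent protein, which marked the gland for dissection. Every array held RNA from a pool of 12 glands, and all fish had been raised in 12 h of light and 12 h of darkness and were in constant darkness when sampled, so that no group was kept in light. Samples were taken every 4 h over 2 daily cycles and are labelled by circadian time (CT): CT14, CT18, CT22, CT2, CT6 and CT10, each with 1 array in the first cycle and 1 in the second (n = 2 per time). CT14 to CT22 fall in the subjective night and CT2 to CT10 in the subjective day.

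Proteins made in the ER leave it in COPII-coated vesicles, whose assembly is started by the small GTPase SAR1, and COPI coats carry material back from the Golgi. Rab GTPases mark the compartments, and fusion is driven by SNARE proteins (VAMP, syntaxin and SNAP-25 types) that NSF and α-SNAP take apart again. At synapses synaptotagmins sense calcium and complexins and syntaxin-binding proteins restrain or prepare fusion; membrane is then recovered by clathrin, the AP-2 adaptor, endophilins, which bend membranes, and dynamins, which cut the neck of the vesicle. Pineal photoreceptors of fish release transmitter at ribbon synapses, where a dense plate holds vesicles at the release site, whereas melatonin leaves the cell without being stored in vesicles. Roles named below are those known from mammals or yeast unless zebrafish is named.

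The median intensity of the arrays ranged from 71.0 to 95.4. Hybridization controls read 666 to 896 on the first 8 arrays and 1076 to 1917 on the last 4 (CT22 to CT10 of the second cycle). Of 29 pineal and photoreceptor markers 18 were measured, and their levels differed widely. Among the bright ones, tph2, an enzyme of serotonin synthesis, read 2624 to 6010 and the photoreceptor transcription factor gene crx 1634 to 4313. Others were much dimmer, such as asmtl (103 to 198), otx5 (98.8 to 273) and gngt2b (62.2 to 296). The array of CT6 in the second cycle stood apart, since its mean correlation with the others was the lowest (0.860). There the mean log2 level of 24 measured skin markers lay 2.30 above its average and that of the pineal markers 0.68 below. Bone and connective tissue markers (17 measured) lay 1.74 above their average and immune markers (17 measured) 1.14 above, while red blood cell markers (8 measured) lay 0.99 below. In such bulk RNA, fewer cells of a type and less RNA per cell cannot be told apart.

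Rhythm was tested with a cosine and a sine of 24 h fitted by limma to the log2 intensities of all 12 arrays, and p-values were adjusted by Benjamini-Hochberg over the 11625 probe sets tested. The fold given for a rhythm compares the highest with the lowest point of the fitted curve. With an adjusted p under 0.05, 60 of the 11625 probe sets were called, or 0.516%. Among the 128 members 2 were called (1.56%): sh3gl2a, an endophilin gene of the endocytic step, and sptbn1, a β-spectrin gene of the membrane skeleton. Next in order was sar1b, the GTPase gene that starts the COPII coat, with an adjusted p of 0.0797. None was called among 27 probe sets for regulated release, 45 for post-Golgi and endosomal transport, 24 for ER and Golgi and 9 outside the steps. At an unadjusted p under 0.05 there were 15 members (11.7%), beside 10.1% of all probe sets: 6 of 27 in regulated release, 4 of 19 in endocytosis, 3 of 45 in post-Golgi transport, 1 of 24 between ER and Golgi and 1 of 4 in the membrane skeleton. The median fitted fold was 1.30 over the members and 1.40 over all probe sets tested, and it was highest in regulated release (1.76) and lowest in post-Golgi transport and outside the steps (both 1.23). The g-factor, the share of a profile's variance that lies at 24 h, placed sh3gl2a (0.917), sptbn1 (0.921) and sar1b (0.923) on the list of 56 probe sets (0.482% of all) with g of at least 0.807, the value that allows a true-positive rate of 90%.

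sh3gl2a, which encodes an endophilin of the type that recovers synaptic vesicles, had the clearest rhythm of the members, with a high level in the middle and late subjective night and a low level at the end of the subjective day. Its normalized intensities were 638, 1529.8, 1718, 916, 671 and 326 on the arrays of the first cycle from CT14 to CT10 and 849, 1768, 1632, 1310.2, 588 and 356 on those of the second. The 4 arrays of CT18 and CT22 read 1529.8 or more, above every other array, and the 2 arrays of CT10 lay below every other array. The means were 1675 ± 60.8 (SD, n = 2) at CT22 and 341 ± 21.3 (SD, n = 2) at CT10. The fitted peak was 4.71-fold over the trough, a log2 difference of 2.24 ± 0.23 (SE, n = 12 arrays), at CT21.2 ± 0.387 h (SE), with an adjusted p of 0.0013 in the limma fit. It was also called in 26 of 26 alternative settings, and its adjusted p-values over all settings lay from 0.00106 to 0.0198. The fitted fold was 4.61 in the first cycle and 4.83 in the second.

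**Figure D1:**
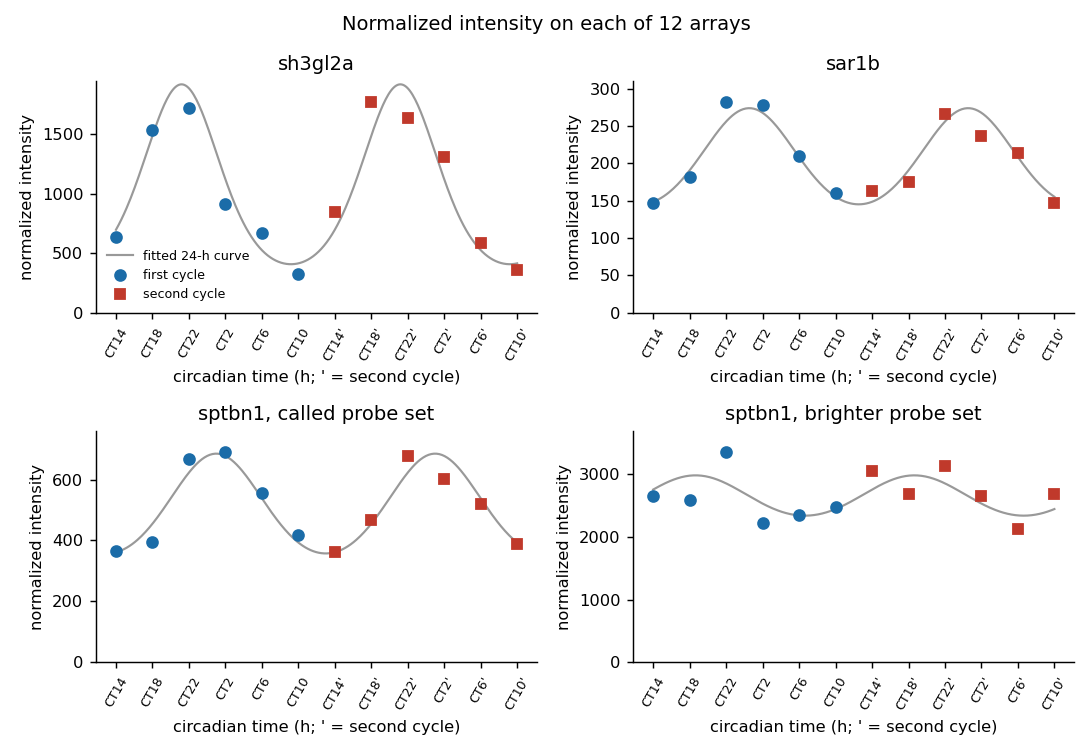
Normalized intensity (linear scale from 0) on the 12 arrays against circadian time for sh3gl2a, sar1b and the 2 tested probe sets of sptbn1; circles are the first cycle, squares the second, and the grey line is the fitted 24-h curve. sh3gl2a reads 1529.8 or more on all 4 arrays of CT18 and CT22, and sar1b and the called sptbn1 probe set are highest at CT22 and CT2. The brighter sptbn1 probe set is also highest at CT22 (mean 3245) but is not high at CT2 (mean 2441).

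The other endophilin genes did not share the rhythm of sh3gl2a at its size. Of the 7 endophilin-family genes tested, which include the endophilin B genes (sh3glb) of mitochondrial and autophagic membranes, only sh3gl2a was called, and the adjusted p of the rest lay between 0.425 (sh3glb1a) and 0.914 (sh3gl3b). sh3gl3b, another endophilin A gene, read 72.4, 121, 142, 109, 109 and 113 in the first cycle and 100.0, 130.2, 93.5, 151, 84 and 154 in the second, with no order by time of day. sh3glb1a read 338, 259, 221, 267, 335 and 291 in the first cycle and 228, 138, 243, 271, 444 and 280.0 in the second, with a fitted peak at CT6.97 in the subjective day and a fold of 1.73. sh3gl1a was near the floor of the array, from 4.99 to 106 with a median of 9.65, and its highest value was that of CT6 in the second cycle, the array with the raised skin, bone and immune markers. The difference between sh3gl2a and each relative was tested as a log2 ratio within the array, by a permutation test of its 24-h share over 100000 orders of the 12 arrays. The ratios to the 5 genes other than sh3gl1a passed, with adjusted p-values over 9 pairs from 0.00027 (sh3gl3b) to 0.00609 (sh3gl1b) and rhythms of 3.97-fold (sh3glb2b) to 7.64-fold (sh3glb1a). The ratio to sh3gl1a had an adjusted p of 0.015, but whether that probe set lay above background is unknown. It was tested only because of 1 array, so no fold is given for it and nothing is read from this ratio. These pairs were formed because sh3gl2a had been called, so the ratios carry its own rhythm. They test only that the relative did not share it in full, since a relative with the same course at a smaller fold could pass as well.

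**Figure D2:**
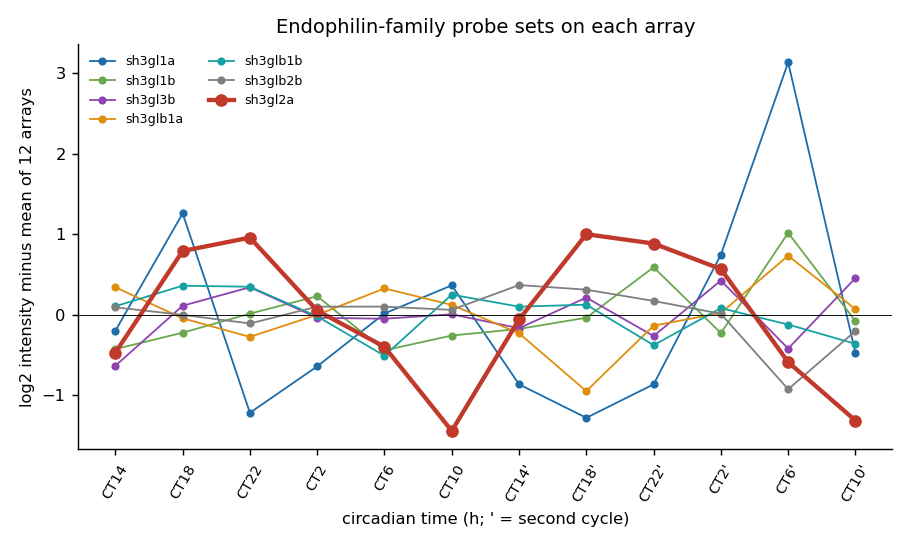
Log2 intensity minus the probe set's own mean over 12 arrays, for sh3gl2a (thick red line) and 6 other endophilin-family genes, against circadian time in 2 cycles. sh3gl2a rises at CT18 and CT22 and falls to its minimum at CT10 in both cycles, while sh3gl1a, near the floor of the array, is highest at CT6 of the second cycle.

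Elsewhere in the endocytic step no further gene was called. snap91b, which encodes the clathrin assembly protein AP180, read 284, 379.5, 497, 469.6, 357 and 237 in the first cycle and 279.7, 322, 353, 310.3, 274 and 246 in the second, and its fitted peak at CT22.8 was 1.68-fold over the trough (adjusted p = 0.326). This probe set was highest at CT22 in both cycles, but the rise was larger in the first. A dimmer second probe set of snap91b had a fold of 2.28 and a fitted peak 4.14 h away. Its highest mean was at CT2 (59.5), and at CT22 it read 27.3. ap2b1, the gene of an AP-2 adaptor subunit, read 618, 567, 547, 406, 456 and 490.1 in the first cycle and 633, 709, 502, 509, 480.4 and 429.7 in the second, with a fitted fold of 1.45 at CT16.9 (adjusted p = 0.431). The clathrin heavy chain gene cltca had 2 probe sets with folds of 1.17 and 1.28, and the light chain gene clta had 1.37. dnm2b, a dynamin gene, had the highest p of the step with 1 probe set taken per gene: it read 88.6 to 153 with a median of 124, with a fold of 1.08 and an adjusted p of 0.974. Thus 1 of 19 endocytic probe sets carried the call of the step, and the median fold of the step was 1.33.

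In the membrane skeleton, the spectrin lattice under the plasma membrane, 1 of 3 sptbn1 probe sets was called. It read 365, 394, 669, 691, 557 and 417 on the arrays of the first cycle from CT14 to CT10 and 362, 468, 678, 602, 519 and 389 on those of the second. All 4 arrays of CT22 and CT2 read 602 or more, and those of CT14, CT18 and CT10 read 468 or less, so these times did not overlap. The fitted peak was 1.92-fold over the trough, a log2 difference of 0.94 ± 0.16 (SE, n = 12 arrays), at CT1.00 ± 0.657 h (SE), with an adjusted p of 0.0414. This call stood close to the threshold: the adjusted p was 0.059 to 0.159 when any of 11 arrays was left out, 0.024 without CT6 of the second cycle, and 0.38 when the arrays were only centred on their medians. With all probe sets of the gene averaged, sptbn1 had an adjusted p of 0.425. In the 12 fits that left out 1 array each, the log2 difference lay between 0.90 and 1.01 and the fitted peak moved by at most 0.366 h. A brighter probe set of the same gene read 2652, 2593, 3361, 2229.5, 2352 and 2477 in the first cycle and 3057, 2684, 3129, 2652, 2122 and 2692 in the second, with a fitted fold of 1.27, a peak at CT18.6 and an adjusted p of 0.625. It too was highest at CT22 in both cycles, but in the first cycle it was lowest at CT2. The log2 ratio of the 2 probe sets was rhythmic (2.05-fold, adjusted permutation p = 0.000675 over 9 pairs). This pair was formed because 1 of its probe sets had been called, so the ratio carries that rhythm. It tests only that the brighter probe set did not share the rhythm in full, since the same course at a smaller fold could pass as well. Which transcript each reads is not given by the annotation used. The remaining probe set never read above 48.4 and was not tested. sptan1, the α-spectrin gene, had a fold of 1.02 (adjusted p = 0.997), and sptb, the red-cell type of β-spectrin, 1.39 (adjusted p = 0.804). The ratios of the called sptbn1 probe set to sptan1 (1.94-fold, adjusted p = 0.069) and to sptb (1.57-fold, adjusted p = 0.40) did not pass the permutation test.

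Between ER and Golgi, sar1b had the largest fitted fold, with a level that was highest from late night to early day. By nearest sampled time, 4 of the 24 tested probe sets of the step peaked at CT22 (16.7%) and 4, sar1b among them, at CT2 (16.7%). Over all probe sets the shares were 15.8% and 18.1%, so the step did not stand out at these times. No rhythm of the step was called, and these peak times are a description. sar1b was the single sar1 gene measured, and it read 146, 182, 282, 278, 209.5 and 159.5 on the arrays of the first cycle from CT14 to CT10 and 163, 175, 266, 236, 213 and 147 on those of the second. The 4 arrays of CT22 and CT2 read 236 or more and the other 8 read 213 or less. The means were 274 ± 10.9 (SD, n = 2) at CT22 and 153 ± 8.73 (SD, n = 2) at CT10. The fitted fold was 1.89, a log2 difference of 0.92 ± 0.18 (SE, n = 12 arrays), with a peak at CT0.539 ± 0.732 h (SE), and the adjusted p of 0.0797 missed the threshold. It fell below it in 1 of the 26 other settings, a filter that removed 50% of the probe sets (0.046).

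Other genes of the COPI and COPII coats did not reach that size. copa, which encodes a subunit of the COPI coat, read 980.1, 942, 979, 1107, 941 and 896 in the first cycle and 809, 945, 1205, 1332, 1136 and 964 in the second (fold 1.34 at CT1.51, adjusted p = 0.527). sec23a, whose product is the COPII subunit that acts on SAR1, read 793, 715, 659.5, 639, 617 and 675 in the first cycle and 680.5, 651, 861, 560.1, 506 and 584 in the second, with a fold of 1.3, a fitted peak at CT17.8 and an adjusted p of 0.613. Neither gene separated night from day. rab2a, a Golgi Rab gene, had a fold of 1.28 on bright intensities of 1720.4 to 3036 with a median of 2556, and sec24b, a COPII cargo adaptor gene with the highest p of the step, 1.03. Over the 24 tested probe sets the fold ranged from 1.03 to 1.89 with a median of 1.28.

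In post-Golgi and endosomal transport the largest fitted fold of all members, 4.75, belonged to stx8, a SNARE gene of late endosomes, but on dim values: 52.4, 94.7, 46.1, 13.4, 54.1 and 62.2 in the first cycle and 63.4, 44.3, 11.6, 10.3, 42.2 and 66.4 in the second. Its 4 arrays of CT22 and CT2 read 10.3 to 46.1 and the fitted peak lay at CT13, and the adjusted p was 0.299. rab13, a Rab gene of delivery to cell junctions, peaked at CT12 with a fold of 1.76 (adjusted p = 0.316) on intensities of 161 to 374 with a median of 233. rab32a, a Rab gene of lysosome-related organelles such as pigment granules, read 150.2, 148, 129.7, 163, 160.5 and 186 in the first cycle and 155, 87, 128, 143, 404 and 283 in the second. Its fold of 2.24 rested on CT6 and CT10 of the second cycle, the 2 highest arrays, and the fitted fold was 1.29 in the first cycle and 3.9 in the second. CT6 of the second cycle, its highest array, is the one with the raised skin, bone and immune markers. The adjusted limma p of rab32a was 0.219 or more in every setting. rab5ab, a gene of the early endosome Rab, had a fold of 1.47 at CT0.93 (adjusted p = 0.518), and rab20, with the highest p of the step, 1.12 (adjusted p = 0.977).

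Regulated release had the largest median fold of the steps and no call. syt1a, the calcium sensor gene of fast release, was bright and read 2835, 3591, 3057, 1913, 2416 and 2877 in the first cycle and 4286, 4002, 3394, 3534, 1915 and 2709 in the second, with a fold of 1.7 at CT17.4 (adjusted p = 0.374). Its second probe set gave 1.31-fold at CT17.3, the same hour to within 0.067 h. stxbp5a, a gene of tomosyn, which restrains SNARE assembly, read 298, 690.4, 696, 378, 316 and 240.1 in the first cycle and 441, 638, 493, 676, 345 and 510.4 in the second (fold 2.05 at CT20.9, adjusted p = 0.376). It was high at CT18 and CT22 of the first cycle and low at CT6 and CT10, but in the second cycle CT2 was the highest array. rab3c, a synaptic vesicle Rab gene, had a fold of 1.78 at CT18.7 (adjusted p = 0.384). napab, an α-SNAP gene, took another course with 116, 215, 166, 280.2, 228 and 201 in the first cycle and 119, 136, 207, 179.7, 254 and 163 in the second, a fold of 1.79 and a peak at CT3.22 (adjusted p = 0.397). The second napab probe set peaked at CT16.1 with a fold of 1.13.

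The SNARE genes of the plasma membrane differed among themselves. snap25a read 1134, 2562, 2531, 786, 437 and 398 in the first cycle and 2835, 4400.2, 652, 3840.2, 1492 and 1741 in the second. In the first cycle its 2 highest arrays were CT18 and CT22, while in the second CT18 and CT2 were high and CT22, at 652, was the lowest, and the 24-h fit over all arrays gave 3.09-fold at CT18.8 with an adjusted p of 0.61. snap25b, its paralog, read 2959.7, 2615, 3106, 2715, 2835 and 2498 in the first cycle and 4807, 4131, 2229.5, 4260.4, 1259 and 4208 in the second (fold 1.46, adjusted p = 0.759). stx3b, a gene of the syntaxin used at ribbon synapses of the mammalian retina, was dim at 16.8 to 71.3 with a median of 56.4 (adjusted p = 0.755), and stx4, a plasma membrane syntaxin gene, had the highest p of the step (1.23-fold, adjusted p = 0.896). nsfa, the gene of the ATPase that takes SNAREs apart, read 1141, 1158, 1062, 745, 669 and 789.8 in the first cycle and 1271, 2122, 827, 1718, 689 and 959.6 in the second with its brighter probe set (fold 1.83 at CT18, adjusted p = 0.508). vamp2, stxbp1a, stxbp1b and the ribbon-type complexin genes had no member probe set and were not analysed here.

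Without the last 4 arrays, on which the hybridization controls were brighter, 4 members were called, beside 133 of 11624 probe sets (1.14%), and 3 of the 4 belonged to regulated release: syt4 (3.84-fold, adjusted p = 0.00534), a synaptotagmin gene of dense-core and other vesicles, snap25a (10.0-fold, adjusted p = 0.0165) and stxbp5a (3.03-fold, adjusted p = 0.0402). The other was sh3gl2a (4.77-fold, adjusted p = 0.0198), and syt4 was named after its values had been seen. These 8 arrays hold 5 of the subjective night and 3 of the subjective day, with 1 array each at CT22, CT2, CT6 and CT10. On them the mean of the brain neuron markers described next lay above its average on all 5 night arrays and below it on all 3 day arrays, and its part in these calls was not tested.

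Genes of brain neurons varied strongly from array to array, and part of the release genes varied with them. Of 33 brain neuron markers 13 were measured, and their mean log2 level deviated from its average by 0.23, 0.38, 0.49, -0.67, -0.49 and -0.70 on the arrays of the first cycle and by 0.31, 0.93, -0.95, 0.84, -0.66 and 0.30 on those of the second. The widest ranges were those of genes of inhibitory neurons, which make or load GABA: gad1b read 48.6 to 1585, gad2 5.25 to 541 and slc32a1 9.29 to 353. The pan-neuronal gene elavl3 read 56.4 to 242. Not every marker took this course: over the 12 arrays 10 of the 13 correlated positively with the mean of the other 12 markers, 8 of them with r above 0.5, and 3 did not, among them nrgna, which was highest at CT2 of the first cycle (2730), and nrp1a. The mean of 10 measured glia markers was also highest on the 2 arrays with the highest neuron marker mean, CT18 and CT2 of the second cycle, where it lay 0.66 and 0.55 above its average, and on the other arrays it lay between -0.44 and 0.14. Whether some pools held more of the neighbouring brain was not tested. The log2 level of each probe set was therefore fitted on the mean of the 13 neuron markers with limma, a relation added after the data had been seen. This fit held no 24-h term. The marker mean lay above its average at CT14 and CT18 and below it at CT6 in both cycles. A slope on the mean and a rhythm that is high at those night times were therefore not separated by this fit. Of 11625 probe sets 177 rose with the marker mean at an adjusted p under 0.05 (1.52%) and 6 fell (0.0516%). The 13 probe sets that form the mean are among those tested, so a rise of some of them was fixed in advance. Among the 128 members 5 rose and none fell (at an unadjusted p under 0.05, 17 rose, beside 7.56% of all probe sets), and 4 of the 5 belonged to regulated release, where 20 of 27 slopes were positive (74.1%, beside 46.6% of all probe sets).

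The 5 genes were cplx2a, snap25a, stxbp6l, rab41 and nsfa, of which cplx2a, stxbp6l and rab41 are named because they passed this test. cplx2a, a complexin gene, rose by 1.18 ± 0.17 (SE) on the log2 scale for each log2 unit of the marker mean (adjusted p = 0.00141), and it read 684, 838, 1051, 437, 479 and 346 in the first cycle and 721, 2926, 373, 1128, 450.4 and 645 in the second. Its 2 highest arrays were CT18 and CT2 of the second cycle, which were also the 2 with the highest marker mean. snap25a rose by 1.59 ± 0.24 (adjusted p = 0.00228) and stxbp6l, a syntaxin-binding protein gene by its name, by 1.67 ± 0.27 (adjusted p = 0.00317). stxbp6l read 185, 107, 130.2, 76.1, 76.9 and 91 in the first cycle and 137, 1024, 47.1, 424, 60 and 240.1 in the second. The brighter nsfa probe set rose by 0.71 ± 0.12 (adjusted p = 0.00466), and 1 of 2 tested rab41 probe sets, of the post-Golgi group, by 0.89 ± 0.15 (adjusted p = 0.00355). The other rab41 probe set did not pass. All 5 slopes were positive within each cycle, from 0.57 to 1.95 in the first and from 0.73 to 2.08 in the second. The 5 had been chosen by their slope over these same arrays, so the slopes by cycle are a description and no separate test. Without the 2 arrays farthest from the median of the marker mean, 4 of the 5 passed, beside 0.989% of all probe sets. In that fit rab41 had an adjusted p of 0.0671. The arrays left out had a low marker mean (CT22 of the second cycle, -0.95, and CT10 of the first, -0.70). The 2 arrays with the highest mean, CT18 and CT2 of the second cycle, stayed in. This fit therefore cannot show how far the slopes rest on those 2 arrays, and it is no separate test either.

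**Figure D3:**
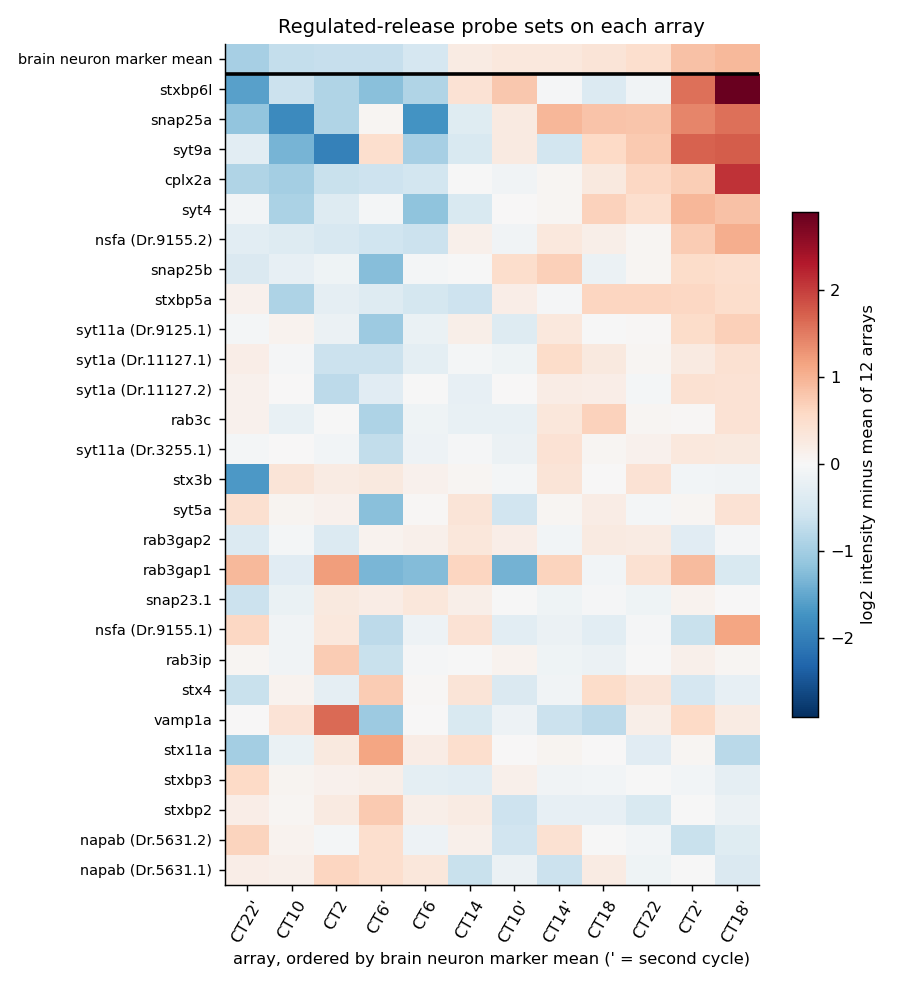
Log2 intensity minus the probe set's own mean over 12 arrays (colour) for the 27 tested regulated-release probe sets, ordered by their slope on the brain neuron marker mean, which is the top row; columns are arrays ordered by that mean, and an apostrophe marks the second cycle. The upper rows (stxbp6l, snap25a, syt9a, cplx2a) change from blue to red along with the top row, and the lower rows (napab, stxbp2, stxbp3) do not.

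snap25b, with a slope of 0.57 ± 0.16 (adjusted p = 0.114), and syt1a, with 0.36 ± 0.14 (adjusted p = 0.288), did not pass, nor did the other tested release probe sets. The 3 leading genes of the rhythm test did not follow the marker mean at the threshold: sh3gl2a had a slope of 0.50 ± 0.32, sptbn1 of -0.17 ± 0.16 and sar1b of -0.15 ± 0.16 (adjusted p of 0.57 or more). With the marker mean as a further term in the 24-h fit, sh3gl2a was still called (4.41-fold, adjusted p = 0.00287), beside 37 of 11625 probe sets (0.318%), and sptbn1 had an adjusted p of 0.0649. In the same fit the 24-h fold of snap25a went from 3.09 to 1.5 and that of cplx2a from 2.51 to 1.42. Both genes had passed the slope test on this mean over the same arrays. A smaller fold with the mean as a term was thus largely fixed in advance and is no separate result. The median fold of the release step went from 1.76 to 1.50, while that of all probe sets was 1.41. Whether the marker mean accounts for the folds of the release step was not tested.

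**Figure D4:**
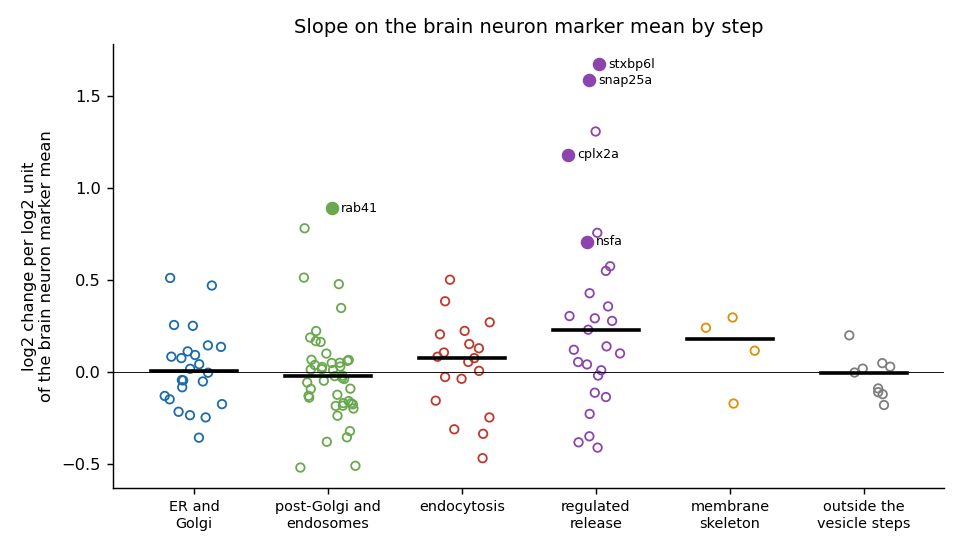
Slope of each of the 128 tested probe sets on the brain neuron marker mean (log2 change per log2 unit), by step of traffic; filled points have an adjusted p under 0.05 over all probe sets, and the black bars are medians. The 4 filled points of regulated release and the single one of the post-Golgi group lie between 0.71 and 1.67, and the medians of the ER and Golgi, post-Golgi and outside groups lie near 0.

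The fitted peaks of the members were not spread evenly over the day. With each peak given to the nearest sampled time, 40 of 128 members (31.2%) fell at CT18, beside 17.1% of all probe sets, and 10 (7.81%) at CT10, beside 17.7%. In regulated release 13 of 27 (48.1%) fell at CT18, in endocytosis 7 of 19 (36.8%), between ER and Golgi 9 of 24 (37.5%), and in post-Golgi transport 7 of 45 (15.6%). Since 2 of these rhythms were called, the peak times are a description. With the brain neuron marker mean in the fit, CT18 held 35 of 128 members (27.3%), beside 17.2% of all probe sets. By step it held 9 of 27 in release, 6 of 19 in endocytosis, 10 of 24 between ER and Golgi and 7 of 45 in post-Golgi transport. Without the last 4 arrays it held 30 of 131 members (22.9%), beside 16.1% of all. The steps then had 15 of 27 in release, 5 of 18 in endocytosis, 4 of 25 between ER and Golgi and 5 of 48 in post-Golgi transport. Where a gene had 2 or more tested probe sets, the peaks lay within 4 h of each other in 5 of 14 genes, among them nsfa, syt1a and syt11a, and over 8 h apart in 5, among them napab and rab41. As many genes thus had distant peaks as close ones. The share over all genes with several probe sets was not computed, so these counts do not bear on any single peak time.

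**Figure D5:**
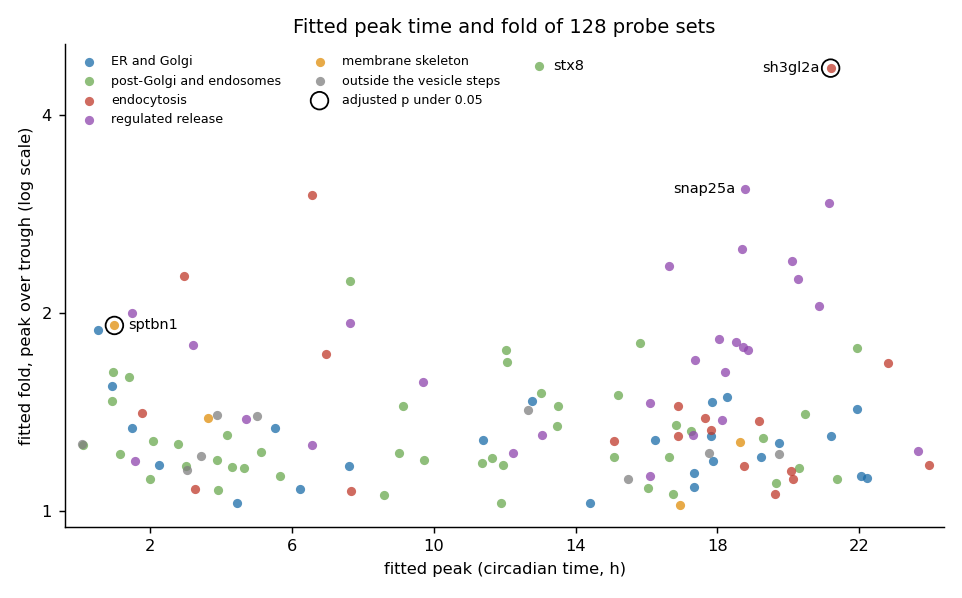
Fitted peak time (hours of circadian time) against fitted fold of peak over trough (log axis) for the 128 tested probe sets, coloured by step of traffic; black rings mark the 2 with an adjusted p under 0.05, sh3gl2a and sptbn1. sh3gl2a, stx8 and snap25a lie highest, and 13 of the 27 regulated-release points have CT18 as their nearest sampled time.

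Other genes of the same pathways, taken from lists and not from the symbol pattern, gave no call among 152 tested probe sets of 132 genes. Over all probe sets 0.516% were called. An unadjusted p under 0.05 was found for 8 of the 152 (5.26%), beside 10.1% of all probe sets. The median fold of the 152 was 1.30, the same as that of the members. rims2a, a gene of the active zone, where vesicles dock, came nearest in the ribbon and synaptic vesicle list. It read 554, 1105, 692, 487, 415 and 318 in the first cycle and 549, 1189, 462, 637, 306 and 375 in the second and peaked at CT19.1 with a fold of 2.67 (adjusted p = 0.0991). The adjusted p was 0.0282 without CT22 of the second cycle and 0.0419 without the last 4 arrays. In the other 24 of 26 alternative settings rims2a was not called. Its slope on the brain neuron marker mean was 0.69 ± 0.19 (adjusted p = 0.0966). syn1, a synapsin gene that coats synaptic vesicles, was the 1 probe set of these lists that rose with the marker mean (1.01 ± 0.19, adjusted p = 0.0111), and it is named for that reason. ctbp2a, whose mammalian counterpart gene also makes the ribbon protein RIBEYE, had a fold of 1.15 (adjusted p = 0.914), and was chosen after its value had been seen.

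In the other lists ap1g1, a gene of the AP-1 adaptor of the trans-Golgi, peaked at CT10.1 with a fold of 2.33 (adjusted p = 0.139), and read 113, 111, 96.1, 98.3, 151 and 183 in the first cycle and 142, 89.3, 48.3, 81.6, 123 and 166 in the second. It was highest at CT10 in both cycles, the time at which sh3gl2a was lowest. arl6, a small GTPase gene of ciliary transport, had 3.37-fold at CT20.1 (adjusted p = 0.344), and scamp5a, a secretory carrier membrane protein gene, 5.42-fold at CT16.4 (adjusted p = 0.5). arl6 was dim, at 15.8 to 125. scamp5a read 10.3 to 432 and was lowest at CT6 of the second cycle, the array that stood apart. The slope of scamp5a on the brain neuron marker mean was 1.44 ± 0.48 (SE, adjusted p = 0.196). trappc8 and trappc4, of the TRAPP tethering complex at the Golgi, had folds of 1.76 and 1.77. Among endocytic and skeletal relatives, fcho2 (an early factor of coated pits), pacsin1b (a membrane-bending partner of dynamin), epb41b and add1 (linkers of spectrin to membrane and actin) had folds from 1.43 to 1.71, with adjusted p-values from 0.52 to 0.58, each for the brightest probe set of the gene. The second probe set of fcho2 had a fold of 2.04 at CT0.379 (adjusted p = 0.413).

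Neither a 12-h rhythm nor a change between the cycles passed the test in any member or in any of the 11625 probe sets (0.0% called in each of the 3 limma tests). At an unadjusted p under 0.05, a 12-h component was found in 1 member (2.67% of all probe sets), a difference of the second cycle from the first in 12 of 128 (7.13% of all) and a rhythm that differed between the cycles in 7 of 128 (6.51% of all). The lowest adjusted p of the members was 0.99, 0.64 and 0.75 in these tests. Among the 7 was rab32a, described above, and the dimmer nsfa probe set, whose fitted fold was 1.03 in the first cycle and 3.35 in the second. The cycle and the day of sampling cannot be told apart. The brighter hybridization controls were those of the last 4 arrays, while CT14 and CT18 of the second cycle read 737 and 809, within the range of the first cycle. Of the genes outside the steps, dnm1l (mitochondrial fission), nsfl1c (a cofactor of the p97 ATPase), sec61a1b (the ER translocation channel), rab5if and sec14l1 had folds from 1.22 to 1.43 and adjusted p-values from 0.54 to 0.92.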

How the data were processed

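The authors deposited 1 table of linear signal intensity for 12 arrays; per the labels and the paper's methods the values came from the GCOS and MAS5 software (versions not given in the sources used here), 1 array at a time. The table holds no scanner values and no detection calls, so the background of a probe set is unknown and the number of arrays limits the precision. Whether same-labelled pools of the 2 cycles differ for biological or technical reasons cannot be told apart, and p-values measure the spread between these arrays. Here the 115 control probe sets were left out, intensities were taken to log2 and quantile-normalized (limma 3.58.1, R 4.3.3), and a probe set was dropped if even its maximum was among the lowest 25%. The printed intensities are the normalized values on the linear scale. Cosine and sine terms were fitted with limma (9 residual degrees of freedom, eBayes with a variance trend), and p-values were adjusted by Benjamini-Hochberg over 11625 probe sets. The g-factor came from numpy 2.4.6 (Python 3.11.15), its threshold from 1000 shuffles of each probe set. The fits were tested on simulated data. Gene symbols were those of the platform annotation, and all 151 members matched RefSeq by gene ID with the same symbol. Of 499 list entries 256 had a probe set with a single symbol.

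The members, gene lists, marker lists and tests were chosen with earlier results of these data known, and steps of traffic were assigned by gene name. Genes named by rule are sh3gl2a, sar1b and sptbn1 with all probe sets, called members, the 4 genes with the lowest p and the 1 with the highest p in each step (1 probe set per gene, the brightest), the 2 with the lowest p in each other list, and a fixed set of surface SNARE genes and their regulators. Other genes were named outside this rule. Some are marked as chosen after their values were seen, and some, such as cltca and clta, carry no mark. The relation to brain neuron markers and the fits with a marker mean as a term were added after the data had been seen, as was the ratio of the 2 sptbn1 probe sets. The alternatives were the deposited values in log2, median centring, a filter at 50% or none, log2 after adding 32, each array left out, the last 4 arrays left out, the daily cycle or a linear trend as a term, circadian time as a factor, no variance trend, robust eBayes, all probe sets of a gene averaged, a false discovery rate of 0.10 and true-positive rates of 85% and 95%.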

Additional observations from a re-analysis of the deposited data

How the results depend on the processing

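The count of 2 rhythmic members (sh3gl2a and sptbn1) fell to 1, sh3gl2a alone, with the deposited values in log2, with median centring, without the variance trend, with a linear trend as a term, with circadian time as a factor and with the brain neuron marker mean as a term. With all probe sets of a gene averaged, sptbn1 was not called either. The member count was 4 without the last 4 arrays, and from 1 to 2 when 1 array was left out, with 2 only without CT6 of the second cycle. The calls over all probe sets moved as well. They went from 60 to 29 with median centring and to 37 with the brain neuron marker mean as a term. They rose to 103 without CT6 of the second cycle and to 133 without the last 4 arrays. The cause of these changes was not tested. Of the 3 members on the g-factor list, 1, sh3gl2a, remained on it with median centring, and without the last 4 arrays the list held 0 members. Without CT22 of the second cycle, 1 member, snap25a, differed in level between the cycles (0 otherwise), and 1 of the other traffic genes, rims2a, was rhythmic. It was also the 1 called without the last 4 arrays, an alternative added after the data had been seen. The count was 0 in the other alternatives run at the unchanged false discovery rate. At the looser rate of 0.10, rims2a was called in the main fit, and sar1b joined the called members. The 12-h count, the count of rhythms that differed between the cycles and the 7 paralog ratios did not move by more than 1.5 times under any alternative run for them. For the 43 probe sets of the genes named by rule, 1115 alternative values were computed: 1090 stayed on their side of the threshold, 20 lost the call, all of them of sptbn1, 5 gained one (sar1b, stxbp5a, snap25a, and rims2a in 2), and in 0 of the values with a call did the fitted peak move by more than 6 h. The fold itself is never below 1 and has no direction.

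Replicates 1 and 2 are the first and the second cycle, and the numbers did not pair the arrays: over 15 pairs of circadian times the correlation of the cycle differences ran from -0.300 to 0.225, with 5 above 0.1. With the cycle as a replicate block 1 member was called, and sptbn1 had an adjusted limma p of 0.0581. There were 2 arrays at each time and no detection calls, so whether dim probe sets such as stx8, sh3gl1a and stx3b lay above background is unknown.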
